A study of Mus musculus with 12 samples.

Results

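Chemokine and chemokine receptor genes were followed in mouse hearts with and without doxorubicin (DOX), an anthracycline used against cancer that is toxic to the heart. The members were taken by a fixed rule from the genes named Ccl, Cxcl, Ccr, Cxcr, Cx3c or Xc in the annotation of the array. They were read from the 76 probe sets that name 1 member gene, and the probe set with the highest mean over the 12 arrays stood for each gene. These gave 49 genes of the 18193 that the array names on its 45037 probe sets. A mean intensity of at least 32 was reached by 26 of the 49 genes, namely 13 CC ligands, 6 CXC ligands, Cx3cl1 and 6 receptors. The other 23 genes were dimmer and are only counted here: 5 CC ligands, 6 CXC ligands, 1 XC ligand and 11 receptors. Cxcr2, with a mean of 32.4, lay just inside this limit, and Ccr6, with 31.3, just outside it.

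Total RNA of whole hearts was hybridised to 12 Affymetrix arrays, with 3 arrays labelled as biological replicates in each of 4 groups. Per the labels all mice were C57BL/6J males aged 8 to 10 weeks, either wild type (WT) or with knockout of CHIP, the cochaperone and ubiquitin ligase encoded by Stub1. The DOX hearts were taken 5 days after 1 dose of 15 mg/kg, and the other hearts were labelled as untreated. The groups are called WT no DOX, KO-labelled no DOX, WT DOX and KO-labelled DOX, since the paper describes the altered mice as cardiac-specific CHIP transgenics and gives another dose, another age and saline-injected controls. The brighter of the Stub1 probe sets went against the knockout label, at 8762 to 9817 in KO-labelled no DOX and 5561 to 8723 in KO-labelled DOX hearts, with 1790.3 to 1857 in WT no DOX and 1930.1 to 1950 in WT DOX hearts. The dimmer one overlapped between the groups, at 1037 to 1402 over all 12 arrays. Whether hearts were pooled is not given in the sources used here. A genotype direction is therefore a direction between labels only.

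Chemokines are small secreted proteins that guide leukocytes along gradients held on heparan sulfate of the vessel wall and matrix. They are grouped by the spacing of their first cysteines into CC, CXC, CX3C and XC ligands, and they signal through receptors coupled to inhibitory G proteins. In the heart, the CCR2 receptor with its ligands CCL2, CCL7 and CCL12 recruits monocytes from the blood, and CX3CR1 marks resident macrophages and patrolling monocytes. CXCL12 acts on CXCR4 in vessel growth and, in the marrow, in the retention of blood cell progenitors.

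Intensities are linear and as deposited, and array medians lay between 28.9 and 30.4. Differences were tested with limma on log2(intensity + 32), and p-values were adjusted by the Benjamini-Hochberg method over all probe sets. A fold change on this scale understates the change of a dim gene, and levels of different genes cannot be set against each other, since probe sets differ in brightness. The 7 cardiomyocyte markers examined were all above a mean of 32, with summed intensities of 111633 to 119830 in WT no DOX, 118648 to 124033 in KO-labelled no DOX, 91468 to 112063 in WT DOX and 105930 to 117364 in KO-labelled DOX hearts. DOX and untreated arrays overlapped in WT but not in KO-labelled hearts. Of these markers 0 were called in WT DOX hearts, Ryr2, the calcium release channel, was called lower in KO-labelled DOX hearts (-0.50, adjusted p = 0.042), and Ryr2 (-0.40) and cardiac actin Actc1 (-0.38) were lower on average. Their part in the chemokine results was not tested. In whole hearts, fewer cells of a type and less RNA per cell cannot be told apart. Of the 26 members, KO-labelled no DOX replicate 3 was the highest of the 12 arrays in 9, and WT DOX replicate 1 the lowest in 7. Over all genes with a mean of at least 32 these arrays were highest in 18.1% and lowest in 9.79%.

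Fitted levels were lower with DOX for 24 of 26 chemokine and receptor genes in WT and for 16 in KO-labelled hearts. The median log2 changes were -0.24 and -0.14, with -0.01 over genes with a mean of at least 32 under each label. Few members passed the test, and no member was called higher. In WT hearts Cxcr4 was called lower after DOX, and in KO-labelled hearts Cx3cr1 was. Each was the only call there, a share near the background given below, and was lost on leaving out some single arrays. The difference in DOX response between labels was called for neither gene (limma interaction, adjusted p = 0.611 and 0.872). When the 12 arrays were read as DOX against no DOX with the genotype labels averaged, Cx3cr1, Ccr2, Ccl7 and Cxcr4 fell. This averaged comparison was added after the values were seen.

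In WT hearts 1 of 26 members was called lower and 0 higher at an adjusted p under 0.05. The background was 1.4% of all probe sets called lower and 1.66% called higher, and 3.19% of all genes with a mean of at least 32 called lower. In KO-labelled hearts 1 member was likewise called lower and 0 higher, beside 1.47% of probe sets lower, 0.731% higher and 3.27% of genes with a mean of at least 32 lower. Both shares are near the background. At an unadjusted p under 0.05, 9 members were lower in WT and 6 in KO-labelled hearts, with 0 and 1 higher, and the shares of all genes with a mean of at least 32 that were lower were 15.9% and 16.5%. All DOX arrays lay below all arrays without DOX in 11 members in WT and in 7 in KO-labelled hearts, against 18.6% and 16.8% of genes.

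With the genotype labels averaged, 4 of 26 members were called lower and 0 higher. Of all probe sets 4.59% were called lower and 4.56% higher, and 10.4% of genes with a mean of at least 32 were called lower. At an unadjusted p under 0.05, 12 members were lower, beside 21.3% of these genes. The fitted change was negative in 21 of 26 members and in 53.2% of genes. The median log2 change of the members was -0.25, with -0.01 over the genes. In 4 members, Ccl2, Ccl7, Ccr2 and Cx3cr1, all 6 DOX arrays were below all 6 others, as in 3.76% of genes. By role, the median log2 change was -0.02 over the 13 CC ligands, -0.29 over the 6 CXC ligands and -0.20 over the 6 receptors. The CC ligands differed by label, with 11 of 13 negative in WT (median -0.19) and 6 of 13 in KO-labelled hearts (median 9.9e-05). This difference was not tested for the CC ligands as a set.

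**Figure D1:**
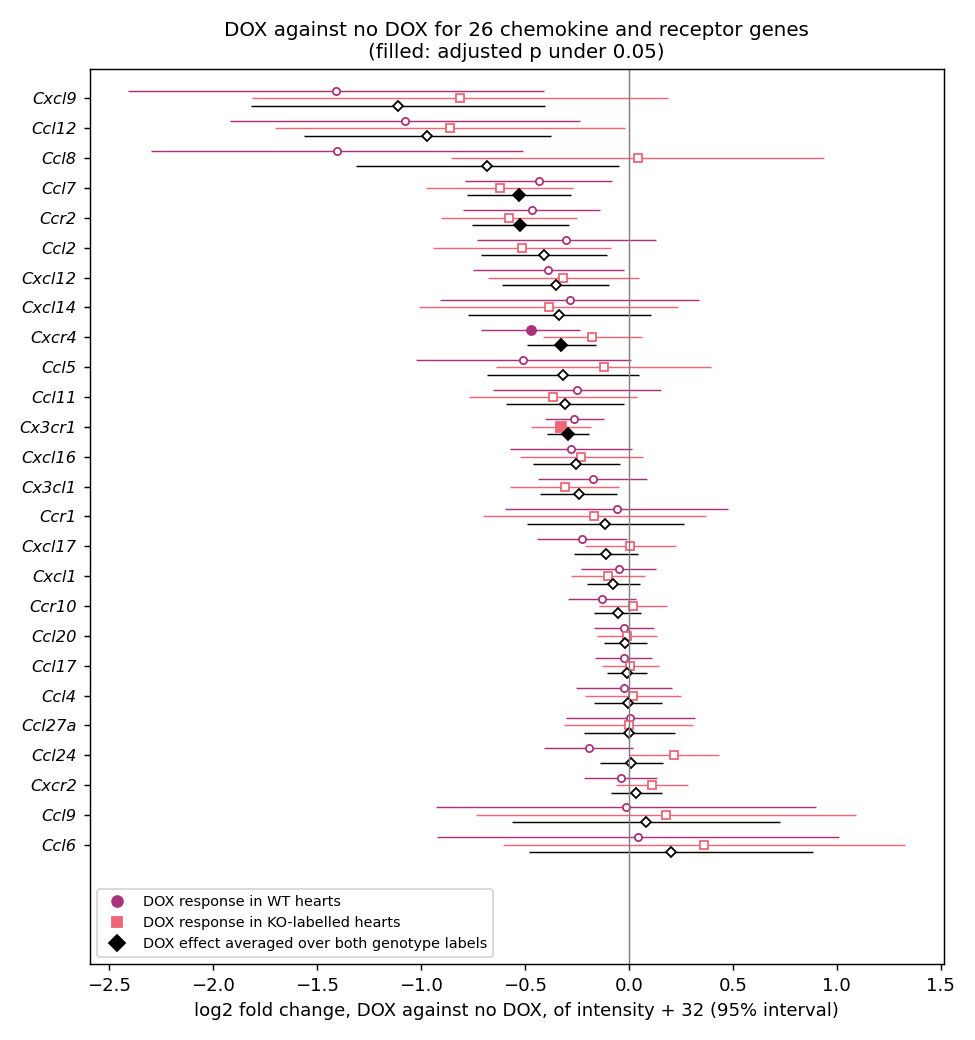
Log2 fold change, DOX against no DOX, of intensity + 32 for the 26 genes (horizontal axis), with 95% intervals from limma. Circles are WT hearts, squares KO-labelled hearts and diamonds the average of both, filled where the adjusted p was under 0.05. Cxcl9 and Ccl12 have the lowest averages, -1.11 and -0.97, with open diamonds and wide intervals, while the 4 filled diamonds lie between -0.53 and -0.29.

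Among the CC ligands, those of the monocyte receptor CCR2 are described first. Ccl7, a ligand of CCR2, was at 67.0, 49.0 and 63.7 in WT no DOX, 58.9, 71.8 and 113 in KO-labelled no DOX, 28.4, 39.0 and 40.5 in WT DOX and 34.4, 39.8 and 46.8 in KO-labelled DOX hearts. Every DOX array was below every array without DOX. The averaged log2 change was -0.53 ± 0.11 (SE, adjusted p = 0.0196), with -0.43 ± 0.16 in WT (adjusted p = 0.171) and -0.62 ± 0.16 in KO-labelled hearts (adjusted p = 0.0782). The averaged call was lost without WT no DOX replicate 3 (adjusted p = 0.0527) and without KO-labelled DOX replicate 1 (adjusted p = 0.0531).

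Ccl2, the main chemoattractant of monocytes, was at 50.8, 47.0 and 62.2 in WT no DOX, 59.2, 52.5 and 124 in KO-labelled no DOX, 36.5, 34.1 and 41.0 in WT DOX and 36.0, 44.9 and 46.9 in KO-labelled DOX hearts. The groups with and without DOX did not overlap, though the highest DOX array and the lowest array without DOX were 46.9 and 47.0. KO-labelled no DOX replicate 3 was far above the other arrays. The log2 change was -0.30 ± 0.19 in WT (adjusted p = 0.463), -0.51 ± 0.19 in KO-labelled hearts (adjusted p = 0.217) and -0.41 ± 0.14 on average (adjusted p = 0.0978), so Ccl2 passed in none of them.

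Ccl12, the other mouse ligand of CCR2 in this set, falls outside the rule for named genes and was chosen after its values were seen. It was at 108, 74.5 and 222 in WT no DOX, 95.2, 128 and 290.3 in KO-labelled no DOX, 29.8, 47.1 and 50.2 in WT DOX and 57.1, 63.8 and 97.0 in KO-labelled DOX hearts. WT DOX arrays were all below WT no DOX arrays, whereas the KO-labelled groups overlapped by 1 array on each side. The averaged log2 change of -0.97 ± 0.27 missed the threshold narrowly (adjusted p = 0.0509).

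Ccl8, which also recruits monocytes and other leukocytes, was at 296, 484 and 493 in WT no DOX, 213, 176 and 417 in KO-labelled no DOX, 85.5, 249 and 114 in WT DOX and 201, 403 and 214 in KO-labelled DOX hearts. WT DOX was below WT no DOX on every array, while the KO-labelled groups lay over each other. The log2 change was -1.40 ± 0.40 in WT hearts (adjusted p = 0.0903) and 0.04 ± 0.40 in KO-labelled hearts (adjusted p = 0.98). The difference between these responses, 1.45 on the log2 scale, was tested as an interaction and missed the threshold (adjusted p = 0.549). Ccl11, the eotaxin that draws eosinophils, was at 33.1 to 58.5 in WT no DOX, 34.7 to 71.7 in KO-labelled no DOX, 23.1 to 41.0 in WT DOX and 26.3 to 33.6 in KO-labelled DOX hearts, with an averaged log2 change of -0.31 ± 0.13 (adjusted p = 0.181).

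Ccl2, Ccl7, Ccl11, Ccl12 and Ccl8 follow each other in this order in the RefSeq gene table of GRCm38.p6, and their averaged log2 changes were -0.41, -0.53, -0.31, -0.97 and -0.68. In a second run of neighbours on the same chromosome, Ccl5, Ccl9, Ccl6 and Ccl4, with Ccl3 among the dim genes, they were -0.31, 0.08, 0.20 and -0.00. Of these 9 genes only Ccl7 was called.

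**Figure D2:**
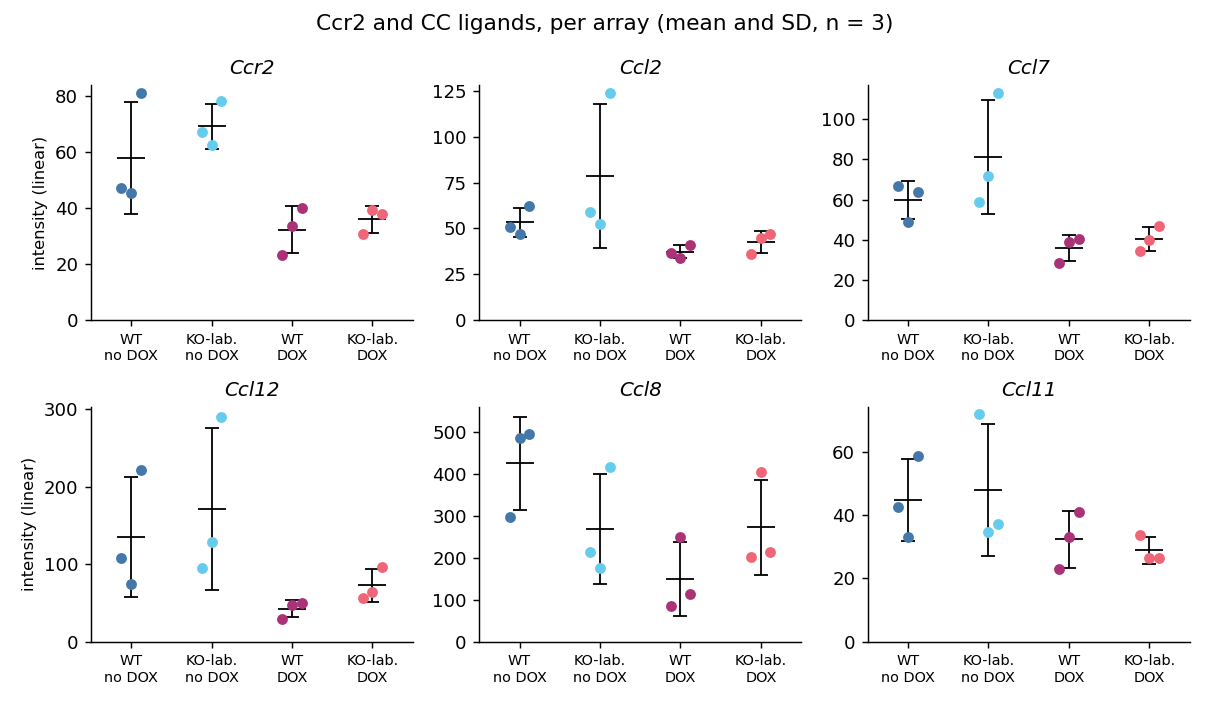
Linear intensity (vertical axis, from 0) of the receptor Ccr2 and of Ccl2, Ccl7, Ccl12, Ccl8 and Ccl11 on each array, by group (horizontal axis). Points are arrays and black marks the mean and SD of 3 arrays. For Ccr2, Ccl2 and Ccl7 every DOX point lies below every point without DOX, and for Ccl8 the KO-labelled groups overlap.

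Ccl6 and Ccl9, myeloid chemokines of rodents that bind CCR1, overlapped widely between the groups. Ccl6 was at 294, 305 and 409 in WT no DOX, 378, 192 and 914 in KO-labelled no DOX, 340.0, 489 and 242 in WT DOX and 569.9, 507 and 535 in KO-labelled DOX hearts. Ccl9 was at 233, 247 and 326, then 343, 159 and 711, then 257, 372 and 189, and 424, 397 and 362 in the same order of groups. For both genes KO-labelled no DOX held the highest and the lowest of the 12 arrays, replicates 3 and 2. All KO-labelled DOX arrays were above all WT DOX arrays for Ccl6, with a log2 difference of 0.60 ± 0.43 (adjusted p = 0.564), whereas for Ccl9 the groups overlapped and the difference was 0.53 ± 0.41 (adjusted p = 0.595). DOX changes ran from -0.01 to 0.36 on the log2 scale and none passed the test. A second Ccl6 probe set, with a mean of 145.6, differed between labels after DOX by 0.27 (adjusted p = 0.783), with overlapping arrays.

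Ccl24, a second eotaxin, was at 57.6, 54.4 and 66.2 in WT no DOX, 61.4, 60.0 and 44.2 in KO-labelled no DOX, 49.5, 43.5 and 50.8 in WT DOX and 60.5, 81.8 and 65.5 in KO-labelled DOX hearts. The 3 KO-labelled DOX arrays were above the 3 WT DOX arrays. The log2 difference after DOX was 0.34 ± 0.10, which had the smallest adjusted p of any member in that comparison, 0.134. Ccl5, which draws T cells and monocytes, averaged 82.7 ± 30.9 (SD, n = 3) in WT no DOX and 48.7 ± 22.7 in WT DOX hearts, with a log2 change of -0.51 ± 0.23 (adjusted p = 0.275) and overlapping arrays. Ccl17, a ligand of CCR4, was at 31.7, 31.3 and 35.5 in WT no DOX, 38.4, 38.7 and 35.7 in KO-labelled no DOX, 33.9, 29.1 and 32.2 in WT DOX and 38.3, 44.6 and 31.5 in KO-labelled DOX hearts. KO-labelled arrays were above WT arrays without DOX, while after DOX they overlapped. The log2 difference between labels was 0.10 ± 0.06 (adjusted p = 0.544) without DOX and 0.13 ± 0.06 (adjusted p = 0.337) after DOX. Over the 12 arrays Ccl4 ran from 60.9 to 93.8, Ccl20 from 38.5 to 52.8 and Ccl27a from 27.1 to 55.9. For these 3 genes and Ccl17 the averaged log2 change lay between -0.02 and 0.00.

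**Figure D3:**
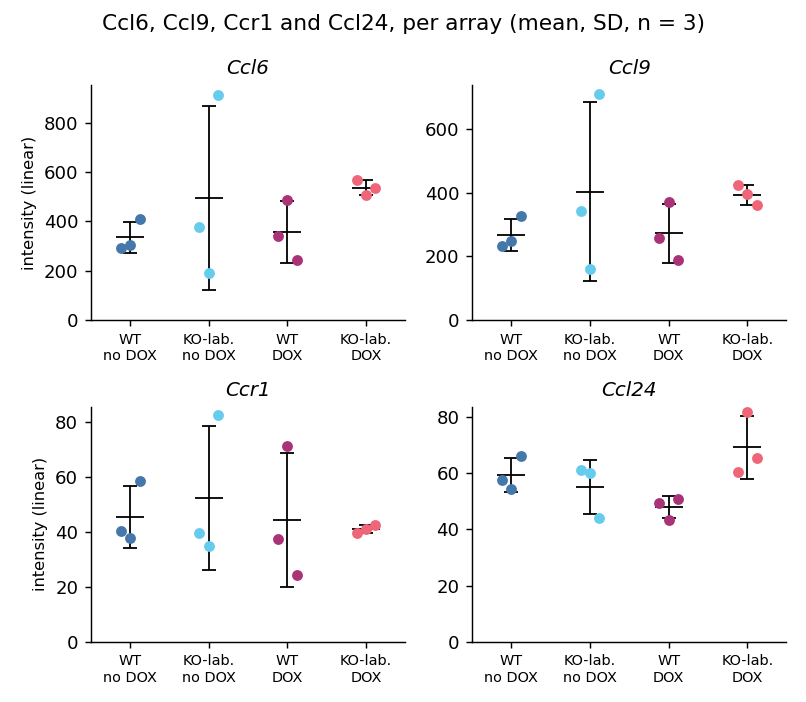
Linear intensity (vertical axis, from 0) of Ccl6, Ccl9, Ccr1 and Ccl24 on each array, by group (horizontal axis), with the mean and SD of 3 arrays in black. The spread of the KO-labelled no DOX arrays for Ccl6, 192 to 914, covers all other arrays, and Ccl24 is higher in KO-labelled DOX than in WT DOX arrays without overlap.

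Among the CXC ligands, Cxcl12, the ligand of CXCR4 made by stromal and endothelial cells, was at 968, 912 and 1238 in WT no DOX, 1046, 1088 and 1192 in KO-labelled no DOX, 718, 732 and 903 in WT DOX and 836, 728 and 1131 in KO-labelled DOX hearts. WT DOX arrays lay below WT no DOX arrays by a narrow margin, and in KO-labelled hearts DOX replicate 3 overlapped with the untreated arrays. The log2 change was -0.39 ± 0.16 in WT (adjusted p = 0.232), -0.32 ± 0.16 in KO-labelled hearts (adjusted p = 0.388) and -0.35 ± 0.11 on average (adjusted p = 0.092).

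Cxcl9, an interferon-induced ligand that draws activated T cells, is also named after its values were seen. It was at 95.6, 221 and 143 in WT no DOX, 249, 87.9 and 34.7 in KO-labelled no DOX, 44.6, 21.8 and 41.5 in WT DOX and 30.5, 50.4 and 48.9 in KO-labelled DOX hearts. Every DOX array was below 5 of the 6 arrays without DOX, and the sixth, KO-labelled no DOX replicate 3, lay among the DOX arrays. The averaged log2 change was -1.11 ± 0.32, the lowest of the 26 members, with an adjusted p of 0.0582.

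Cxcl16, a membrane-bound ligand of CXCR6, was at 128, 141 and 128 in WT no DOX, 149, 145 and 187 in KO-labelled no DOX, 106, 77.9 and 132 in WT DOX and 123, 128 and 143 in KO-labelled DOX hearts. KO-labelled exceeded WT arrays without overlap in the absence of DOX, and overlapped with them after DOX, with a log2 difference of 0.27 ± 0.13 (adjusted p = 0.37). Its averaged DOX change was -0.25 ± 0.09 on the log2 scale (adjusted p = 0.132). Cxcl17, a mucosal chemokine, was at 56.2, 66.9 and 74.1 in WT no DOX, 64.6, 60.8 and 49.0 in KO-labelled no DOX, 60.0, 49.2 and 45.8 in WT DOX and 54.3, 67.7 and 53.8 in KO-labelled DOX hearts. The groups overlapped, and the interaction of label and DOX was 0.23 ± 0.14 (adjusted p = 0.667). Over the 12 arrays Cxcl1 ran from 184 to 240.3 and Cxcl14 from 53.6 to 178. Averaged DOX differences of Cxcl1, a neutrophil chemoattractant, Cxcl17 and Cxcl14, which is made in many epithelia, were -0.07, -0.11 and -0.33, and none passed the test.

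Cx3cl1, the membrane-anchored fractalkine of endothelium and the ligand of CX3CR1, was at 57.7, 62.2 and 63.3 in WT no DOX, 78.8, 66.3 and 111 in KO-labelled no DOX, 52.6, 42.6 and 57.0 in WT DOX and 60.0, 60.2 and 65.1 in KO-labelled DOX hearts. DOX arrays were below untreated arrays within each label, and KO-labelled arrays above WT arrays within each treatment. Between labels the log2 difference without DOX was 0.32 ± 0.12 (adjusted p = 0.238). Among DOX hearts it was 0.18 ± 0.12 (adjusted p = 0.509). The averaged DOX change was -0.24 ± 0.08 (adjusted p = 0.11). A second Cx3cl1 probe set, with a mean of 52.7, overlapped between the groups in each of these comparisons. Its averaged DOX change was -0.02 (adjusted p = 0.861). Between labels it differed by 0.09 without DOX (adjusted p = 0.588) and by 0.07 after DOX (adjusted p = 0.642).

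Of the 6 receptors 3 were called lower on average, and of all 26 members 4, beside 10.4% of genes with a mean of at least 32. In WT DOX hearts Cx3cr1, Ccr2 and Cxcr4 averaged 30.2, 32.3 and 32.9. In KO-labelled DOX hearts they averaged 32.7, 35.8 and 30.3. These levels are near the limit of 32 and the array medians of 28.9 to 30.4. Cx3cr1, the fractalkine receptor, was at 42.9, 40.0 and 44.6 in WT no DOX, 53.1, 43.9 and 49.7 in KO-labelled no DOX, 31.7, 31.3 and 27.6 in WT DOX and 31.8, 27.4 and 38.8 in KO-labelled DOX hearts. All 6 DOX arrays were below all 6 others. The log2 change was -0.32 ± 0.06 in KO-labelled hearts (adjusted p = 0.0366), -0.26 ± 0.06 in WT hearts (adjusted p = 0.0607) and -0.29 ± 0.05 on average (adjusted p = 0.00617). The averaged call stood in all 21 alternatives, over which the change ran from -0.38 to -0.14, the latter when the probe sets of the gene were averaged. The KO-labelled call stood in 10 of 17 alternatives, over which the adjusted p reached 0.347. It was lost with the 6 arrays alone and with the methods' t-test after adjustment, among others. It was also lost on leaving out any of 4 arrays, no DOX replicates 1 and 3 and DOX replicates 1 and 2, with adjusted p from 0.0841 to 0.128.

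Ccr2, the receptor that releases monocytes from the marrow and brings them to tissue, was at 46.9, 45.3 and 80.9 in WT no DOX, 67.1, 62.2 and 77.9 in KO-labelled no DOX, 23.3, 33.4 and 40.1 in WT DOX and 30.5, 39.0 and 37.9 in KO-labelled DOX hearts. Again every DOX array was below every untreated one. The averaged log2 change was -0.52 ± 0.10 (adjusted p = 0.0153) and was called in all 21 alternatives, where it ran from -0.65 to -0.22, the latter with the probe sets of the gene averaged, while the change was -0.47 in WT (adjusted p = 0.116) and -0.57 in KO-labelled hearts (adjusted p = 0.0786). Of the other Ccr2 probe sets, 1 with a mean of 23.1, thus under 32, was called lower in WT (-0.28, adjusted p = 0.0309), in KO-labelled hearts (-0.34, adjusted p = 0.0203) and on average (-0.31, adjusted p = 0.00277). Another, with a mean of 34.7 and so the only other one above 32, differed by -0.01 on average (adjusted p = 0.916) with overlapping arrays, and the dimmest, with a mean of 7.93, by -0.02 (adjusted p = 0.655).

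Cxcr4, the receptor of CXCL12 on leukocytes, progenitors and endothelium, was at 63.3, 55.6 and 55.3 in WT no DOX, 50.4, 32.9 and 32.4 in KO-labelled no DOX, 34.1, 30.1 and 34.6 in WT DOX and 33.3, 35.8 and 22.0 in KO-labelled DOX hearts. The WT no DOX arrays stood above all 9 others. The log2 change with DOX was -0.47 ± 0.11 in WT (adjusted p = 0.0472) and -0.18 ± 0.11 in KO-labelled hearts (adjusted p = 0.484). The interaction was 0.30 (adjusted p = 0.611), so the responses were not shown to differ. The WT call was lost on leaving out any 1 of the 6 WT arrays, with adjusted p from 0.0584 to 0.143. Without DOX, KO-labelled hearts were lower by -0.36 ± 0.11 on the log2 scale (adjusted p = 0.135). The averaged call (-0.32 ± 0.08, adjusted p = 0.0276) was lost without any of the WT no DOX arrays, without WT DOX replicate 1 or 2 and without KO-labelled DOX replicate 1, with adjusted p from 0.0510 to 0.0622. Ccr1, Cxcr2, the neutrophil receptor, and Ccr10, a receptor of skin-homing lymphocytes, had averaged log2 changes of -0.11, 0.04 and -0.05, none of which passed. Over the 12 arrays they ran from 24.3 to 82.5, 24.2 to 37.5 and 32.1 to 47.6.

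**Figure D4:**
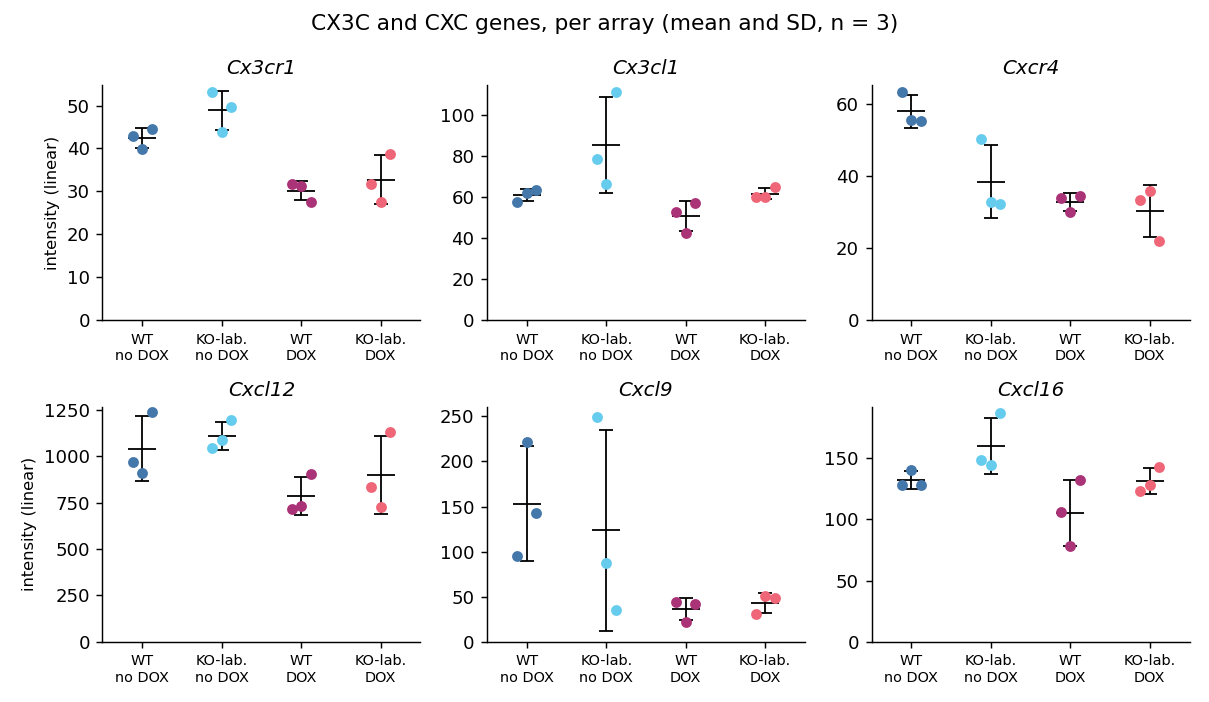
Linear intensity (vertical axis, from 0) of Cx3cr1 with its ligand Cx3cl1, Cxcr4 with its ligand Cxcl12, Cxcl9 and Cxcl16 on each array, by group (horizontal axis), with the mean and SD of 3 arrays in black. Cx3cr1 separates DOX from no DOX in both labels, and for Cxcr4 the WT no DOX arrays, 55.3 to 63.3, stand above the 9 others.

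Promoter sequence is shown for the 3 receptors called and for Ccl12 and Cxcl9, the members with the lowest averaged changes, to set their upstream letters beside their shared direction. These 5 were chosen after the values were seen. Each window is the 250 bases before the gene's start in RefSeq on GRCm38.p6, 5′ to 3′ on the gene's strand, and no window was given for Ccl2 or Ccl7. The windows lie at chr9:124101933-124102182 on the plus strand for Ccr2, chr9:120068297-120068546 on the minus strand for Cx3cr1, chr1:128592300-128592549 on the minus strand for Cxcr4, chr11:82101595-82101844 on the plus strand for Ccl12 and chr5:92328080-92328329 on the minus strand for Cxcl9. Capitals mark the letters of an interferon element (GAAANNGAA on either strand).
Ccr2: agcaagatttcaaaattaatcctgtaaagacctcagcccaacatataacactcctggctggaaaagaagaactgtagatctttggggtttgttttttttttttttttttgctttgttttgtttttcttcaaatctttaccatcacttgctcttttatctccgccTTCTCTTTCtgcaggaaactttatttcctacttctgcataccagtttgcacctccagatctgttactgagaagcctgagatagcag
Cx3cr1: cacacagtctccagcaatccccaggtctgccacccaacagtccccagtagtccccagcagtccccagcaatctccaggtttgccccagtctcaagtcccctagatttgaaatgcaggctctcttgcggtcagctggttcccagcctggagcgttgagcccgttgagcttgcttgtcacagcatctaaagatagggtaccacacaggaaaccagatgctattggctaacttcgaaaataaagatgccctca
Cxcr4: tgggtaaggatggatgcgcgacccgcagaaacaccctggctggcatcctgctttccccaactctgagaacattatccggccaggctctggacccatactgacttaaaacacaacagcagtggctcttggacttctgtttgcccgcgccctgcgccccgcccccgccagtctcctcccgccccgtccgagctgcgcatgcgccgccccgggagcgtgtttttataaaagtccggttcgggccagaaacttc
Ccl12: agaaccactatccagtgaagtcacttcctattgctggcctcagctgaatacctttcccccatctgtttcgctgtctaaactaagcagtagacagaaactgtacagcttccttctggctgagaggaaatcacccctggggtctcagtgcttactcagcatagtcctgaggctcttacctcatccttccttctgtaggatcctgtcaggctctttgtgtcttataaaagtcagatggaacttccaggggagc
Cxcl9: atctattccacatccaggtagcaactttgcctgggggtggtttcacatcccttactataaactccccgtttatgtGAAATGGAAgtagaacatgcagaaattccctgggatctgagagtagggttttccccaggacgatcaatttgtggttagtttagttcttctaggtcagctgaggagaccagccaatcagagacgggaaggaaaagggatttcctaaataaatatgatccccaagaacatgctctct

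The interferon element was found in Ccr2, 86 to 78 bases before the start, in Cxcl9, 175 to 167 bases before it, and in Cxcl14. These are 3 of the 17 members with a window, beside 7.13% of all 32851 windows. The windows of Cx3cr1, Cxcr4 and Ccl12 held no match to this or to the other motifs searched on both strands. Of the 17 members 3 held an NF-kB motif (Ccl20, Ccl9 and Cxcl1, the last as overlapping matches 1 base apart), 2 a STAT motif TTCNNNGAA, 2 an AP-1 motif TGANTCA and 1 a hypoxia element ACGTG. The shares of all windows were 3.9%, 7.02%, 6.75% and 16.6%. A match is a description of letters and does not show binding.

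Between the labels, no member was called. Cxcr4 came nearest without DOX (adjusted p = 0.135), where 1.81% of all probe sets were called in either direction, and Ccl24 among DOX hearts (adjusted p = 0.134), where 0.941% were. At an unadjusted p under 0.05 there was 1 member lower and 1 higher without DOX, and 1 higher after DOX, thus 2 and 1 of 26, beside 26.6% and 24.8% of genes with a mean of at least 32 in either direction. KO-labelled arrays lay wholly above WT arrays in 3 members without DOX, Cx3cl1, Cxcl16 and Ccl17, against 12.6% of genes with a mean of at least 32. After DOX they did so in 4, Ccl12, Ccl24, Ccl6 and Cx3cl1, against 12.1% of genes. A Cxcl12 probe set not chosen also did so after DOX, as given with the other probe sets. The brightest probe sets not chosen of Ccl6 (after DOX), Cxcl16 (without DOX) and Cx3cl1 (with and without DOX) overlapped between labels. The interaction of label and DOX was called in 0 members by limma, with 2 at an unadjusted p under 0.05, Ccl8 and Ccl24. It was called in 0 of all probe sets, thus 0%, with 3914 of them at an unadjusted p under 0.05.

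**Figure D5:**
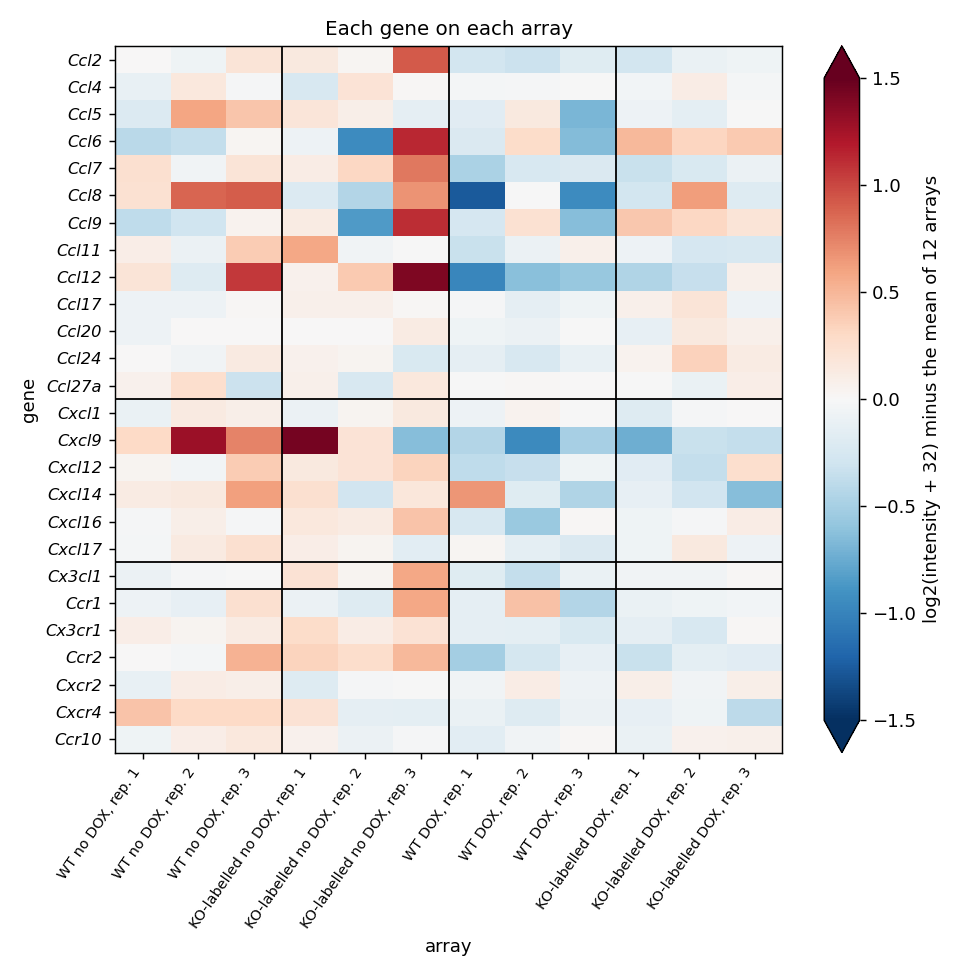
Log2(intensity + 32) of each of the 26 genes (rows, by role) on each of the 12 arrays (columns, by group), minus the gene's mean over the arrays, in colour from blue (low) to red (high). Many rows are paler or bluer in the 6 DOX columns, and KO-labelled no DOX replicate 3 holds the highest value in 9 rows.

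Genes that work with the chemokine system were read from fixed lists. Of 10 atypical receptors and chemokines under other names, Pf4, a platelet and macrophage CXC chemokine, was called lower in WT DOX hearts, and none was called in KO-labelled hearts. Pf4 averaged 472 ± 55.9 (SD, n = 3) in WT no DOX, 516 ± 134 in KO-labelled no DOX, 205 ± 18.6 in WT DOX and 319 ± 22.0 in KO-labelled DOX hearts. The DOX change was -1.08 ± 0.16 on the log2 scale in WT (adjusted p = 0.0157) and -0.61 ± 0.16 in KO-labelled hearts (adjusted p = 0.0846). Of all genes with a mean of at least 32, 3.19% were called lower in WT and 3.27% in KO-labelled hearts. Of the platelet list 3 of 6 genes had such a mean, and 0 were called in any comparison. A platelet part in the lower Pf4 was not tested.

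Of 23 measured genes of receptor signalling, 0 were called in either DOX response, and 4 were called lower on average. They were Gnai2, an inhibitory G protein subunit (-0.18), Gnb1 (-0.25), Dock2, which drives leukocyte migration (-0.24), and Pik3cg. Pik3cg had group means of 19.8 to 26.4, under 32. Of all genes with a mean of at least 32, 10.4% were called lower on average. Of 11 genes of chemokine processing and presentation, Adam17, a sheddase of CX3CL1, fell in WT (-0.34, adjusted p = 0.0253) and KO-labelled hearts (-0.47, adjusted p = 0.0102) and was higher in KO-labelled no DOX than in WT no DOX hearts (0.33, adjusted p = 0.033). Ext1, which builds heparan sulfate, fell in WT hearts (-0.38, adjusted p = 0.0372). Mmp2, a gelatinase that cleaves CCL7 and CXCL12, was higher in KO-labelled DOX than in WT DOX hearts by 1.00 on the log2 scale (adjusted p = 0.047). Of these 11 genes, 2 were called lower in WT, 1 in KO-labelled hearts and 4 on average. The shares of genes with a mean of at least 32 were 3.19%, 3.27% and 10.4%. The label comparisons each held 1 call, beside 1.81% of all probe sets without DOX and 0.941% after DOX. Of 15 NF-kB and cytokine genes 0 were called in either DOX response, and on average Tnfaip3, an NF-kB inhibitor, was called lower (-0.31).

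Markers of cell types were also read from fixed lists. Of 14 measured macrophage and monocyte markers, 12 had a mean of at least 32. In WT DOX hearts 4 were called lower and 0 higher, among them Cd68 (-0.95), the receptor Csf1r (-0.75) and Folr2 of resident macrophages (-0.82), and in KO-labelled DOX hearts 0 were called, with Cd68 at -0.66 and Csf1r at -0.35. In the interaction 0 were called. On average 6 were called lower, Timd4 among them, and the median log2 change of the list was -0.40. Of all genes with a mean of at least 32, 3.19% were called lower in WT, 3.27% in KO-labelled hearts and 10.4% on average. The summed intensity of the list was 5890.3 to 7371 in WT no DOX, 5265 to 10955 in KO-labelled no DOX, 3568 to 5029 in WT DOX and 5151 to 6242 in KO-labelled DOX hearts, so that the DOX and untreated arrays overlapped in KO-labelled but not in WT hearts. Itgam and Timd4 were under a mean of 32. The part of these markers in the lower Ccr2, Cx3cr1 and Ccl7 was not tested.

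The MHC class II genes H2-Aa and H2-Ab1, in the dendritic list, fell in WT DOX hearts, H2-Aa by 1.68 on the log2 scale, while 0 of the 6 measured genes of that list were called in KO-labelled DOX hearts. In KO-labelled hearts H2-Aa averaged 1363 ± 657 (SD, n = 3) without and 561 ± 93.9 with DOX, a log2 difference of -1.12 (adjusted p = 0.161), and H2-Ab1 398 ± 154 and 174 ± 34.7, a difference of -1.01 (adjusted p = 0.125). For both genes all KO-labelled DOX arrays were below all KO-labelled no DOX arrays. Both were called lower on average, and 0 genes of the list were called in the interaction. The summed intensity of the list was 1789 to 3587 in WT no DOX, 1054 to 2668 in KO-labelled no DOX, 743 to 885 in WT DOX and 762 to 999 in KO-labelled DOX hearts. Of the T and NK cell list, whose sums ran from 274 to 331 over all arrays, 4 of 9 measured genes had a mean of at least 32 and 0 were called. Of the neutrophil list 4 of 7 and of the B cell list 1 of 5 had such a mean, and 0 were called in any comparison. Of 8 fibroblast markers, from which Cxcl12 can come, 1 was called lower in WT and 2 in KO-labelled DOX hearts, with sums of 11137 to 14241 in WT no DOX, 14980.3 to 22050.4 in KO-labelled no DOX, 9567 to 10573.5 in WT DOX and 11965 to 13621 in KO-labelled DOX hearts. On average 4 fibroblast markers were called lower, Col1a1 (-0.92), Col1a2 (-0.82), Col3a1 (-2.17) and Lum (-1.26). Of 7 endothelial markers 0 were called in either DOX response, and Kdr (-0.41) and Tek (-0.22) were called lower on average. Of 7 mural cell markers 2 were called lower in KO-labelled DOX hearts and 2 on average, Acta2 (-1.15) and Cspg4 (-0.27), and 1 of 6 mast cell and eosinophil markers and 1 of 3 measured erythroid markers in WT DOX hearts. The mast cell call was of Kit, with group means of 9.96 to 21.6, under 32. Beside the counts of these lists, 3.19% of genes with a mean of at least 32 were called lower in WT, 3.27% in KO-labelled hearts and 10.4% on average. Across labels, 1 fibroblast marker was called higher in KO-labelled hearts without DOX and 1 after DOX, with list medians of 0.81 and 0.58. Without DOX 1 mural marker was also called higher and 1 macrophage marker lower. Of all probe sets, 1.81% were called between labels without DOX and 0.941% after DOX. The part of these lists in the chemokine results was not tested.

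Pairs of neighbouring genes and of ligand and receptor were set against each other across arrays, within the 6 arrays without DOX and within the 6 DOX arrays. The 14 pairs were chosen with the values in view and gave 28 relations, each tested with an exact two-sided permutation test. None passed the Benjamini-Hochberg adjustment over the 28. Ccl9 and Ccl6 had r = 0.99 and rho = 0.94 without DOX (exact p = 0.00417 and 0.0167, adjusted p = 0.0778 and 0.233), and r was 0.95 without the 2 arrays farthest from the median. In the DOX arrays they had r = 0.99 and rho = 0.83 (exact p = 0.00833 and 0.0583, adjusted p = 0.0778 and 0.272), which became r = 0.57 without the 2 farthest arrays and so rests on those. Other pairs came near these values. Without DOX, Ccl6 and Ccr1 had r = 0.93 (exact permutation p = 0.00556, adjusted p = 0.0778), and r = 0.73 without the 2 farthest arrays. Ccl2 and Ccr2 had rho = 0.94 there (exact permutation p = 0.0167, adjusted p = 0.233), with r = 0.66. Each set of 6 arrays holds both labels.

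Other probe sets of the members did not always follow the chosen ones. The chosen Cxcl1 probe set differed by -0.07 on average with DOX, while a dimmer one differed by -0.64 on the log2 scale, with all 6 DOX arrays below all 6 others but an adjusted p of 0.165. A second Cxcl12 probe set, with a mean of 369.7, differed between labels after DOX by 0.92 ± 0.35 on the log2 scale (adjusted p = 0.241), with all KO-labelled DOX arrays above all WT DOX arrays. The chosen Cxcl12 probe set differed there by 0.17 ± 0.16 (adjusted p = 0.673), with overlapping arrays, and neither was called. A second Cx3cr1 probe set, with a mean of 10.7, differed by 0.02. A probe set that names several Ccl21 genes, ligands of CCR7 on lymphatic vessels, is no member. It fell on average (-0.81 on the log2 scale, adjusted p = 0.0454), with -1.12 ± 0.30 in KO-labelled hearts (adjusted p = 0.0939) and -0.49 in WT hearts (adjusted p = 0.441).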

How the data were processed

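Heart RNA was hybridised to 12 Affymetrix arrays, 3 per labelled group. The linear intensity values of 45037 probe sets were deposited by the authors, who made them with Affymetrix Expression Console. Its version, the summary method and the normalization are not given in the sources used here. Within groups arrays correlated at 0.988 to 0.997. The labels call the replicates biological, and the paper counts mice per group for the arrays. The number of arrays limits the precision.

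The platform annotation named 1 gene for 34945 probe sets, several for 932 and none for 9160. A gene that fits the members' names but that the rule leaves out is not reported here. All 76 member probe sets matched RefSeq of GRCm38.p6 by Entrez ID. After 32 was added and log2 taken, limma 3.58.1 (R 4.3.3, eBayes without a trend, two-sided) estimated 4 group means from the 12 arrays together. The Benjamini-Hochberg adjustment covered every probe set, with calls at 0.05. The averaged DOX comparison and the count over any probe set of a gene were chosen after seeing the data. Members and lists were chosen with earlier results of these data known. Named with full values were called members, the 4 with the smallest p in each planned comparison, the 4 with the highest mean and Cxcl12, with the exceptions stated in the text. Some list genes were not matched, and counts over a list are of its measured genes. Same-numbered replicates did not deviate together (18 correlations, -0.24 to 0.15, 4 over 0.1), so numbers were not taken as pairs. Alternatives varied the normalization, the added value, the filter, the variance model, the array weights, the replicate block, the probe sets, the test (the methods' t-test) and the arrays. Scripts were tested on simulated data, and Python 3.11.15, scipy 1.17.1 and matplotlib 3.10.9 were used.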

Additional observations from a re-analysis of the deposited data

How the results depend on the processing

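No member was called higher in either DOX response, or in either direction by the interaction, under any alternative. In WT hearts the count of members called lower, 1, became 0 with array medians subtracted, 0 with 64 added and 0 on leaving out any of the 6 arrays (0 to 0), 3 with the filter on dim probe sets, 2 with array weights, 2 when a gene's probe sets were averaged, 2 with the 6 arrays alone and 2 over any probe set. In KO-labelled hearts the count, 1, became 3 with the filter, 3 with trended and robust variance, 0 with the 6 arrays alone and 2 over any probe set, and ran from 0 to 1 on leaving out an array. The methods' t-test gave 0 lower in WT and 0 in KO-labelled hearts after the Benjamini-Hochberg adjustment, and 7 and 3 unadjusted. Unadjusted it also gave 1 higher and 1 lower between labels without DOX and 1 higher after DOX. With the replicate block the counts were 2 in WT and 2 in KO-labelled hearts. The numbers do not pair the arrays, and in 8 of 18 comparisons an array correlated best with its own number. Between labels without DOX the count lower ran from 0 to 1 on leaving out an array, with Cxcr4 called without KO-labelled no DOX replicate 1 (adjusted p = 0.0486). The averaged count of 4 became 8 with the filter and ran from 2 to 6 on leaving out an array, at 2 without WT no DOX replicate 3 and without KO-labelled DOX replicate 1. The filter tests fewer probe sets. The cause of the other shifts was not tested. The interaction of Cxcl12, 0.07, ran from -0.10 to 0.21 on leaving out an array, at -0.06 without WT no DOX replicate 3 and -0.10 without KO-labelled DOX replicate 3. Of the values of single genes under alternatives, 508 kept their direction and side of the threshold, 16 newly passed it, 24 no longer did and 2 reversed.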
